A study of Mus musculus with 5480 samples.

Results

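The 10 genes described here are the regulators of smooth muscle contraction and the myocardin-SRF axis: Myocd, Srf, Mylk, Myl9, Myl6, Cald1, Tpm1, Tpm2, Ppp1r14a and Ppp1r12b. They were taken by name from the 18072 genes of a read count table of single mesenchymal cells from mouse distal lung, and all 10 were found in it. Single cells were processed in plates with a Tn5 transposase protocol, in which an enzyme cuts the DNA copy and adds the sequencing adapters, and no RNA was extracted first. The 5480 cells came from 10 mice, 1 female and 1 male in each of 5 groups: E18.5 (before birth), P1, P7 and P21 (days after birth), all labelled normal for treatment, and P7 pups labelled hyperoxia, meaning raised oxygen. The labels name no genotype, strain, transgene or oxygen dose, and each mouse carries its own name, so the mouse is the replicate and each group has n = 2.

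Contractile force in smooth muscle comes from myosin pulling on actin. SRF is a transcription factor that binds the CArG box in the promoters of contractile genes, and myocardin, the product of Myocd, is its coactivator in muscle. Myosin is switched on when the kinase encoded by Mylk phosphorylates the regulatory light chain (Myl9), which sits on the myosin neck next to the essential light chain (Myl6). Myosin phosphatase reverses this step: Ppp1r12b encodes one of its targeting subunits, and Ppp1r14a encodes CPI-17, a phosphatase inhibitor. Caldesmon (Cald1) and the tropomyosins (Tpm1 and Tpm2) lie along the actin filament, and their smooth muscle forms are made from genes that other cells also use. In the lung these genes serve the muscle of airways and vessels and the myofibroblasts of the growing alveolar wall.

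A cell held 39358 to 5177020 reads (median 774305), and a mouse held 311 to 633 cells and 294154721 to 671766116 reads. The titles name a mesenchymal sort for 5409 cells, a CD31 sort for 69 and a CD45 sort for 2. Cells kept the authors' 16 subtype labels, which were checked against marker genes. The summed level of the smooth muscle list was highest in vascular smooth muscle (18130 CPM, counts of the gene scaled to a common library size), the pericyte list reached 7093 CPM in pericytes, and the striated list reached 9216 CPM in striated muscle. Early airway smooth muscle carried 12920 CPM of the smooth muscle list and 4896 CPM of the airway list, but also 9783 CPM of Tgfbi, a gene listed as a myofibroblast marker, more than in the cells labelled myofibroblast (4709 CPM). Pdgfra, the other gene of that list, went the other way. With it the list summed to 9818 CPM in early airway cells and to 4986 CPM in myofibroblasts. Airway smooth muscle of P21 held 2006 CPM of the smooth muscle list and 5460 CPM of the airway list, nearly all of it Hhip (5262 CPM). Actg2, the other airway gene, led that list in early airway smooth muscle (3757 CPM). The P21 cells also held 1314 CPM of the adventitial list, mostly Dcn (1108 CPM), against 192.5 CPM in early airway smooth muscle.

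Because SRF binds the CArG box, the promoters of the members were searched for it. RefSeq promoters on GRCm38.p6 were available for 9 of the 10 members (12 promoters); Myocd had no entry. The window is the 250 bases before the gene start. A CArG box matching the consensus at every base was found in 482 of 32851 promoters of the table (1.467%), and in promoters of 3 members, Srf, Myl9 and Myl6. Srf held 2 copies, CCATATAAGG and CCATAAAAGG, which begin 82 and 62 bases before its start. Myl9 held CCTAATAAGG, 161 bases before its start. Myl6 held CCTTATATGG, 50 bases before the start of 1 of its 2 promoters. When 1 base was allowed to differ, 5 of the 9 members matched, Cald1 and Tpm1 being added, and so did 18.62% of all promoters. Motifs were searched on both strands, and a match describes letters and is not a measured binding site. The windows below carry the boxes in capitals, and the Ppp1r14a window, which has no match, is given because its level ran against that of Myocd in airway cells. Mylk, Tpm2 and Ppp1r12b had no match either, and the level of Tpm2 went with that of Myocd (Pearson correlation 0.73). The windows are Srf at chr17:46556163-46556412 on the minus strand, Myl9 at chr2:156775214-156775463 on the plus strand, Myl6 at chr10:128493010-128493259 on the minus strand and Ppp1r14a at chr7:29289070-29289319 on the plus strand, written 5′ to 3′.
Srf: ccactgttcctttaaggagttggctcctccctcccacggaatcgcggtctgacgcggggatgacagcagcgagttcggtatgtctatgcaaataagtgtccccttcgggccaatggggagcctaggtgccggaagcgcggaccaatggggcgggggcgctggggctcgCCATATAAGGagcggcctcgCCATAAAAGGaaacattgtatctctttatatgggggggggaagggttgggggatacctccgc
Myl9: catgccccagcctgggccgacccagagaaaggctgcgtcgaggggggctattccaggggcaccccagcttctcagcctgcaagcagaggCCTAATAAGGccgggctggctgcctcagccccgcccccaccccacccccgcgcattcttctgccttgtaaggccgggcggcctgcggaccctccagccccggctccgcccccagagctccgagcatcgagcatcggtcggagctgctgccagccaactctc
Myl6: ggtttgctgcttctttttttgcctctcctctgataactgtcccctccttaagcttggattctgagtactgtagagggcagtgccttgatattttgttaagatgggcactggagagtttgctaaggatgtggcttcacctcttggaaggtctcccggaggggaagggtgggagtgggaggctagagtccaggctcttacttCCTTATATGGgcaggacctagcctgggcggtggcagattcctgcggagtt
Ppp1r14a: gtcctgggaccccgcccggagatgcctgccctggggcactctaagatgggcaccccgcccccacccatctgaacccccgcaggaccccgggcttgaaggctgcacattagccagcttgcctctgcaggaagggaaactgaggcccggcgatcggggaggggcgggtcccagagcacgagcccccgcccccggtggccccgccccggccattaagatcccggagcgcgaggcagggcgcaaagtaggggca

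The levels below are CPM over the total reads of the library, where a library is the summed cells of 1 mouse and 1 subtype with at least 10 cells. There were 64 such libraries over 15 subtypes. A value pair gives the female first and then the male. The levels of different subtypes are set side by side as a description without a test, because the subtypes had been named from the same cells. In summed libraries, fewer expressing cells and less RNA per expressing cell cannot be told apart, so the share of cells with at least 1 read is given beside the level where it helps.

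Myocd was the most restricted of the members. It had its highest means in early airway smooth muscle, with 473 and 340.2 CPM at P1 and 755 and 663 CPM at P7. Vascular smooth muscle followed, overlapping at P1 (209.5 and 476 CPM) and at 308 and 109 CPM at P7. Myofibroblasts held 126 and 136 CPM and proliferating myofibroblasts 149 and 135 CPM at that age. The airway libraries stood apart from all others at P7, whereas the vascular and the myofibroblast libraries overlapped. At E18.5, the precursors of myofibroblasts and smooth muscle already held 273 and 468 CPM. By P21 the order was different, since the later airway smooth muscle held 187 and 138 CPM and vascular smooth muscle 424 and 198 CPM, with no overlap between those pairs. A few airway cells of P21 still carried the early label. With them included, airway and vascular libraries overlapped, with a mean of 264 CPM in airway against 311 CPM in vascular cells. Other cells held less, with exceptions. Pericytes held 2.30 and 22.5 CPM at E18.5 and 0 and 0.0762 CPM at P7, and for the 0 the 3 reads that could have been missed allow up to 0.149 CPM. Among alveolar fibroblast libraries the highest value was 5.33 CPM, among adventitial ones 16.2 CPM and among proliferating fibroblast ones 33.3 CPM. The single striated muscle library, of the P21 female, held 186 CPM, with a read in 3 of its 16 cells.

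At P7, 67 of 75 female (89.3%) and 56 of 64 male (87.5%) early airway cells held a Myocd read. Thinning every cell to 100000 reads left 86.7% and 84.8%. Vascular smooth muscle cells with a read made up 55.6% and 51.6%, and myofibroblasts 37.4% and 40.8%. Proliferating myofibroblasts lay above both at 65.6% and 68.9% (63.1% and 57.7% after thinning), although their level was near that of the other myofibroblasts. None of 26 female pericytes had a read, so the true share there could be as large as 11.5%, and 1 of 31 male pericytes had one. In early alveolar fibroblasts, which serve as the background, the shares were 4.59% and 7.48%, or 0.894% and 1.43% after thinning. Median depths in the female were 1383000 reads per early airway cell and 996900 per early alveolar fibroblast, and in the male 795600 and 727700. PCR copies of a molecule count as separate reads here, so this limit, like every interval, covers counting error only.

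Srf showed no such restriction. Its level lay between 0.147 and 117 CPM over the 64 libraries, with a median of 28.9 CPM. At P7 the mean of each subtype lay between 14.9 CPM in vascular smooth muscle and 32.6 CPM in early adventitial fibroblasts, and every subtype overlapped its neighbour in that order. The highest library was vascular smooth muscle of the male hyperoxia mouse (117 CPM, against 17.1 CPM in the female). The shares of cells with a Srf read ranged from 14.8% to 53.1% at P7 in normal air. A low and noisy level of this kind limits any comparison of Srf between groups.

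**Figure D1:**
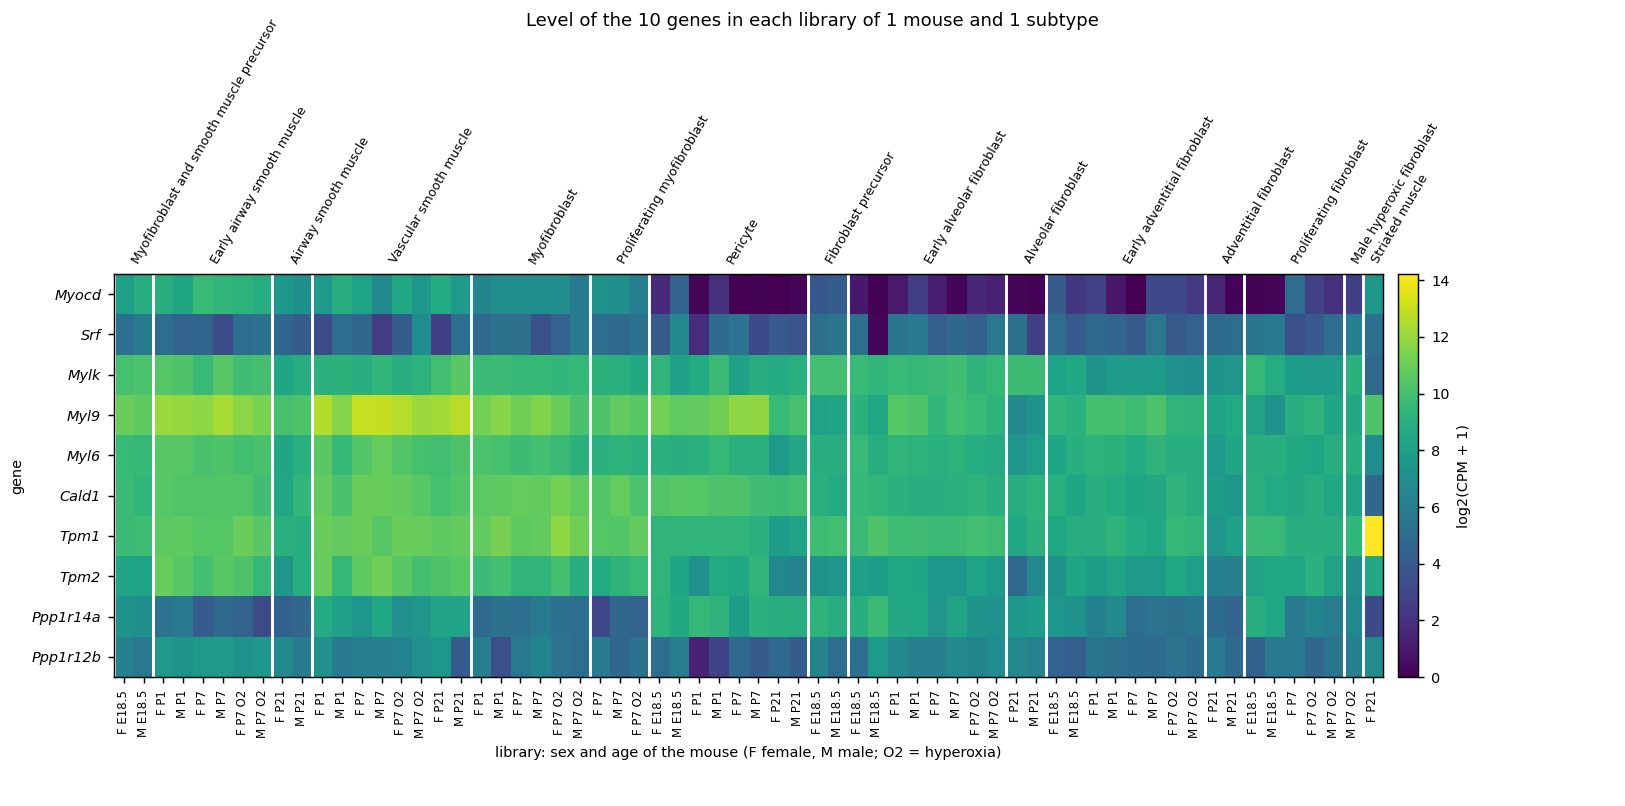
Level of each of the 10 genes (rows) in each of the 64 libraries of 1 mouse and 1 subtype (columns, grouped by subtype and labelled by sex and age, O2 marking hyperoxia), as log2(CPM + 1). Myocd is dark in most pericyte and fibroblast columns and bright in the muscle and myofibroblast columns, Srf varies from 0.147 to 117 CPM between libraries, within subtypes too, and the Ppp1r14a row runs the other way from Myocd in the airway columns.

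Mylk, the light chain kinase gene, was present in every kind of mesenchymal cell. At P7 it reached 811 and 1501 CPM in early airway smooth muscle, 821 and 917 CPM in early alveolar fibroblasts, 745 and 723 CPM in myofibroblasts and 506 and 682 CPM in vascular smooth muscle. Pericytes held 280.3 and 456 CPM and early adventitial fibroblasts 223 and 211 CPM. Early airway smooth muscle and early alveolar fibroblasts overlapped, and both myofibroblast and both vascular libraries lay below the alveolar ones. Fibroblast precursors of E18.5 already held 1003 and 1002 CPM. Mylk shares 6.854% of its exon bases with opposite-strand genes, and whether counting used strand was not stated.

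Myl9 had its highest means in vascular smooth muscle at P1, P7 and P21. At P1 the vascular libraries overlapped those of early airway smooth muscle, with a mean of 4712 CPM against 4194 CPM. At P7 the vascular libraries held 7989 and 7835 CPM, more than in any other subtype and apart from the next. Early airway smooth muscle held 3585 and 5258 CPM, overlapping pericytes at 3637 and 3662 CPM, and myofibroblasts held 2214 and 2959 CPM. Of the subtypes with a library from both mice, early adventitial and early alveolar fibroblasts lay lowest, with means of 1057 and 833 CPM. The single proliferating fibroblast library of P7, from the female, held 505 CPM. At P21 the vascular libraries still held 4876 and 6626 CPM, while the airway libraries held 1073 and 1249 CPM and the alveolar ones 102 and 164 CPM.

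Myl6, the essential light chain gene, varied less. Its level ran from 1374 and 1835 CPM in vascular smooth muscle to a mean of 513 CPM in early adventitial fibroblasts at P7, among subtypes with both mice, and the single proliferating fibroblast library held 396 CPM. Early airway smooth muscle held 1132 and 1242 CPM and myofibroblasts 856 and 1022 CPM, each apart from the next in the order. Levels were also compared per kilobase of merged exon, which joins all exons of a gene (1162 bases for Myl9, 3187 for Myl6). On this basis the ratio of Myl9 to Myl6 had a median of 12.2 in the 8 vascular libraries (10.9 to 15.9) and of 8.49 in the 6 early airway libraries. In the 8 pericyte libraries it was 9.90 (7.80 to 19.4), overlapping the vascular range, against 1.71 in the 2 alveolar libraries of P21. On CPM, Myl9 lay below Myl6 in those alveolar libraries (a median of 133 CPM against 212 CPM). The 16 striated cells of the P21 female gave a ratio of 28.1, from 1 library.

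The genes of the thin filament split into a broad and a muscle-weighted pattern. Cald1 was nearly as high in myofibroblasts (1893 and 1820 CPM) as in vascular smooth muscle (2070 and 1919 CPM) at P7, with early airway smooth muscle at 1325 and 1375 CPM and pericytes at 1203 and 916 CPM. Tpm1 was likewise high in vascular smooth muscle (2029 and 1468 CPM) and myofibroblasts (1628 and 1797 CPM), which overlapped. Tpm2 was at 1682 and 2262 CPM in vascular smooth muscle, 996 and 1528 CPM in early airway smooth muscle, and 632 and 668 CPM in myofibroblasts, each apart from the next. Pericytes came just below, at 357 and 626 CPM, and overlapped proliferating myofibroblasts at 416 and 605 CPM. Early alveolar fibroblasts held 189 and 179 CPM of Tpm2. Per kilobase of merged exon (6485 bases for Tpm1, 2909 for Tpm2), the median ratio of Tpm2 to Tpm1 was 1.78 in vascular and 1.75 in early airway smooth muscle. It was also above 1 in proliferating fibroblasts (1.34), pericytes (1.20) and early adventitial fibroblasts (1.095). In myofibroblasts (0.847) and early alveolar fibroblasts (0.602) it was below 1. On CPM the medians were higher for Tpm1, at 1878 against 1518 CPM in vascular and 1569 against 1354 CPM in early airway smooth muscle. In striated muscle the ratio was 0.0447, with Tpm1 at 19100 CPM in that single library.

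Ppp1r14a, the phosphatase inhibitor gene, had the opposite pattern to Myocd in the airway. At P7 it had its highest mean in pericytes, at 254 and 520 CPM, and was similar in vascular smooth muscle (173 and 350 CPM) and early alveolar fibroblasts (172 and 314 CPM), with neighbours overlapping. Early airway smooth muscle held 16.2 and 28.2 CPM and myofibroblasts 35.6 and 54.2 CPM. At P1 the pericyte libraries (703 and 616 CPM) stood apart from all others, and at P21 (490 and 467 CPM) again. At E18.5 they did not: pericytes held 594 and 399 CPM, early alveolar fibroblasts 485 and 822 CPM and fibroblast precursors 598 and 461 CPM, all overlapping. Shares of cells followed the levels: 88.5% and 93.5% of pericytes and 87.2% and 85.7% of early alveolar fibroblasts held a read at P7, against 30.7% and 48.4% of early airway cells. The ratio of Ppp1r14a to Mylk per kilobase was 2.77 (median of 8 libraries, 1.7 to 6.44) in vascular and 0.182 (6 libraries, 0.0691 to 0.389) in early airway smooth muscle, with no overlap. In pericytes the median ratio was 8.52.

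Ppp1r12b, the phosphatase targeting subunit gene, was highest in early airway smooth muscle, where Ppp1r14a was low. Early airway smooth muscle held 217 and 233 CPM at P7, apart from early alveolar fibroblasts (72.0 and 101 CPM) and vascular smooth muscle (70.7 and 71.8 CPM). Pericytes held 28.3 and 16.9 CPM, a mean of 22.6 CPM that became 53.3 CPM when every cell was weighted equally, an alternative chosen after the data had been seen. Of the early airway cells, 76% and 75% held a read. The gene shares 4.739% of its exon bases with an opposite-strand gene.

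**Figure D2:**
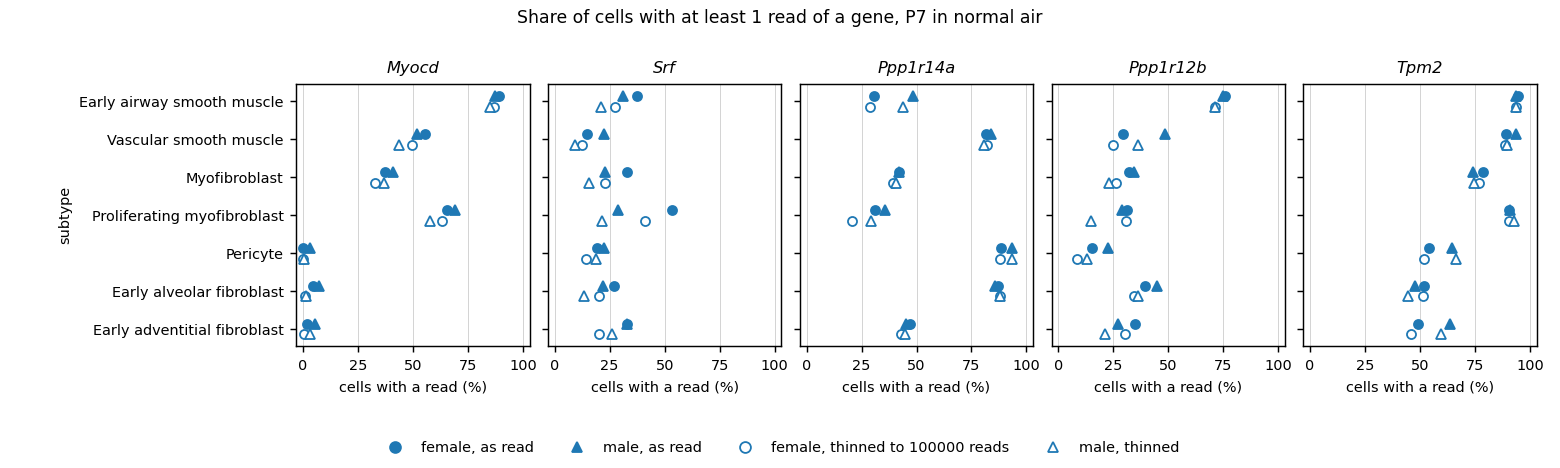
Share of cells with at least 1 read (percent) for Myocd, Srf, Ppp1r14a, Ppp1r12b and Tpm2 by subtype at P7 in normal air, 1 point per mouse, filled as sequenced and open after thinning each cell to 100000 reads. Myocd lies above 85% in early airway cells as sequenced and at or below 3.23% in pericytes, where Ppp1r14a reaches 88.5% and 93.5%.

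Across the 64 libraries, Pearson correlations of log2(CPM + 1) describe which members moved together. The libraries share mice, depth and the subtype labels, so no p is given. Myocd went with Tpm2 (0.73) and Myl9 (0.67) and against Ppp1r14a (-0.48). Myl9 and Tpm2 gave 0.82 and Myl6 and Tpm2 gave 0.82. Cald1 and Tpm1 gave 0.25 over all libraries but 0.75 without the striated library. Srf stayed between -0.21 and 0.13 with every other member.

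Of 14019 genes compared, those most like Myocd were Lgr6 (0.89), Cnn1 (0.88), which encodes calponin, and Ramp1 (0.87), a receptor activity-modifying protein gene. For Srf the closest genes were Zmat2 (0.62), Bag6 (0.61) and Strn4 (0.61), a looser match than for Myocd. Ppp1r14a was closest to Gng11, a G protein subunit gene (0.81), Tns1, a tensin gene (0.81), and Mapt, the tau gene (0.79). Tpm2 was closest to Acta2, the smooth muscle actin gene (0.91), Actg2, the enteric smooth muscle actin gene (0.85), and Pdlim7 (0.80). Myl9 was closest to Actg2 (0.83), Myh11, the smooth muscle myosin heavy chain gene (0.83), and Rrad (0.81).

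Changes with age and oxygen were tested on summed reads of each mouse and class with edgeR's quasi-likelihood test, with Benjamini-Hochberg adjustment over all genes tested and a threshold of 0.05. Airway smooth muscle here joins the early and the later label. No member passed in any of the 15 comparisons within a class (150 tests; the lowest adjusted p was 0.189) or in the 4 tests of a difference between classes (40 tests; lowest adjusted p 0.354). At an unadjusted p under 0.05, 15 of the 150 and 5 of the 40 stood. Over all genes that share was 2.569% to 10.54% in the comparisons within a class and 2.252% to 4.929% between classes. DESeq2, run as an alternative, called Myl9 for P21 against P7 in airway cells, pericytes, alveolar and adventitial fibroblasts, Tpm2 in pericytes, and Mylk for the difference between vascular and airway cells. With 2 mice a group the power was low. Of 200 genes with a simulated 4-fold change, 9% were recovered in the airway comparison of P21 with P7 and 0.5% in the pericyte one. In the test of the difference between vascular and airway cells, 0% were recovered. The fold changes below are therefore given with their errors as measurements, and none of them is a change called by edgeR. Values in these paragraphs are CPM on the TMM scale of each class fit, unless stated otherwise.

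In airway smooth muscle, 7 of the 10 members had both P21 mice below both P7 mice, and 1, Ppp1r14a, had them above. On plain CPM the Ppp1r14a mice overlapped, with means of 26.9 CPM at P21 and 22.2 CPM at P7. Across all genes, 23.67% were lower and 19.66% higher without overlap, and 1.13% of 13496 genes were called (0.734% higher, 0.393% lower). The members' median log2 fold change was -0.83, against -0.09 for all genes. Myl9 went from 3291 and 5017 CPM at P7 to 1685 and 1994 CPM at P21 (log2 fold change -1.17, SE 0.32; edgeR adjusted p = 0.189). Myocd went from 693 and 632 CPM to 259 and 375 CPM (-1.06, SE 0.35; edgeR adjusted p = 0.312). Both P21 values lay below both P7 values in each case. The males of both ages shared 1 sequencing run, and within it the Myocd values were 632 and 375 CPM. Cald1, Tpm1 and Myl6 were the other members with an unadjusted p under 0.05, a mark that 10.54% of all genes reached. Srf and Mylk overlapped. Airway cells held 3175 and 2988 genes per cell at P7 and 1944 and 1721 at P21 after thinning to 100000 reads, and the part of this in the values was not tested.

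These airway values depend on how the joined class was made. At P21, 4 of 62 female and 2 of 57 male airway cells still carried the early label. They held 5.66% and 7.02% of the class's reads, but 19.2% and 58.5% of its Myocd reads, 39.2% and 39.6% of its Mylk reads, 54.0% and 34.2% of its Tpm2 reads and 28.9% and 29.7% of its Myl9 reads. With the early label used only before P21 and the later label only at P21, an alternative chosen after the data had been seen, Myocd was the 1 member called (log2 fold change -1.74; edgeR adjusted p = 0.039). Myl9 then gave -1.53 (edgeR adjusted p = 0.0608). On plain CPM, the log2 ratio of the group means in the joined class was -1.42 for Myocd and -1.52 for Myl9, against -1.06 and -1.18 on the TMM scale.

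Genes of the surrounding pathway were tested in the same airway comparison. Of 13 contractile SRF targets, 2 fell and none rose: Cnn1 from 1451 and 1875 CPM to 395 and 281 CPM (log2 fold change -2.34, SE 0.35; edgeR adjusted p = 0.0162), and Actg2 from 2921 and 3977 CPM to 544 and 383 CPM (-2.91, SE 0.38; edgeR adjusted p = 0.0116). The list's median was -0.55. Of 9 SRF partners and antagonists tested, Fhl2, which encodes a LIM protein that binds SRF, fell from 490.5 and 269 CPM to 84.8 and 44.6 CPM (-2.56, SE 0.42; edgeR adjusted p = 0.0217). Of 7 immediate-early targets of SRF, 3 rose and all 7 were higher without overlap, against 19.66% of all genes (median 2.04, other classes and the step from P1 to P7 below). Junb, an AP-1 subunit gene, rose from 987 and 777 CPM to 6345 and 4450 CPM (2.61, SE 0.36; edgeR adjusted p = 0.0133), Ier2 from 765 and 562 CPM to 3335 and 2926 CPM (2.25, SE 0.32; edgeR adjusted p = 0.014), and Egr1, a zinc finger factor gene, from 1651 and 2145 CPM to 9351 and 6315 CPM (2.04, SE 0.33; edgeR adjusted p = 0.021). None of these 6 calls held without the P7 male (edgeR adjusted p from 0.0573 for Actg2 to 0.185 for Ier2) or in a fit of only the 4 mice compared. Fhl2, Egr1, Junb and Ier2 were also lost without the P7 female, Cnn1 and Fhl2 without the P21 male, and Egr1 without the P1 female. The direction of all 6 was the same without each of the 8 mice. Without 1 mouse, the genes called in this comparison numbered between 45 (without the P7 male) and 261 (without the P21 female).

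In vascular smooth muscle the same ages gave a different set of values. The members' median was -0.06, against -0.09 for all genes, with 1 member higher and 1 lower without overlap (16.78% and 20.06% of all genes), and 0.0886% of 12417 genes were called (0.0483% higher, 0.0403% lower). Mylk was at 488 and 744 CPM at P7 and at 1051 and 1861 CPM at P21 (1.23, SE 0.46; edgeR adjusted p = 0.638), and it was the 1 member higher without overlap. Myl9 overlapped, with 7700 and 8544 CPM at P7 and 5257 and 8014 CPM at P21. Myocd was at 297 and 119 CPM and then at 457 and 240 CPM, which overlap. edgeR called no gene of these 3 lists there. Of the 7 immediate-early genes, 5 had an unadjusted p under 0.05 (7.208% of all genes), all higher (list median 1.71). For the same ages the list's median was 0.94 in adventitial fibroblasts, where all 7 were higher without overlap (23.15% of all genes) and none was called. It was 0.53 in alveolar fibroblasts and -0.39 in pericytes.

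The difference between both smooth muscles was tested directly. For P21 against P7, the fold change in vascular minus that in airway cells was 1.73 for Mylk (SE 0.38; edgeR adjusted p = 0.354), 1.92 for Myocd (SE 0.74; edgeR adjusted p = 0.902) and 1.04 for Tpm1 (SE 0.36; edgeR adjusted p = 0.831). No member passed, and 0.0633% of 14223 genes did. With the early-labelled airway cells of P21 left out, Mylk gave 2.32 (edgeR adjusted p = 0.117) and Myocd 2.57.

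In pericytes, 4 of the 10 members were lower at P21 than at P7 without overlap and none was higher, against 16.22% and 24.41% of all genes, and 0.0504% of 11894 genes were called (0.0168% higher, 0.0336% lower). Myl9 was at 3741 and 3537 CPM at P7 and at 770.2 and 1166 CPM at P21 (-1.93, SE 0.42; edgeR adjusted p = 0.424). Tpm2 was at 367 and 605 CPM and then at 98.3 and 86.5 CPM (-2.35, SE 0.66; edgeR adjusted p = 0.772), and Tpm1 was at 651 and 507 CPM and then at 236 and 330.4 CPM (-1.04, SE 0.49; edgeR adjusted p = 0.955). Ppp1r14a overlapped, from 261 and 502 CPM to 481 and 498 CPM. Beside them, Acta2 fell from 4827 and 1830 CPM to 92.5 and 128 CPM (-4.81, SE 0.58; edgeR adjusted p = 0.00583), and Actg2 fell from 12355 reads in the pericytes of both P7 mice to 2 reads at P21. That is a ratio of 1.496e+04 with an exact counting interval from 4141 to 1.236e+05. The interval pools both mice and leaves out PCR copies and the spread between mice, which held 9078 and 3277 reads at P7. Acta2 and Actg2 were 2 of 12 contractile targets tested. Both calls were lost without the P21 female (edgeR adjusted p = 0.217 for each) and without the P21 male (edgeR adjusted p = 0.0951 for Acta2 and 0.1 for Actg2). The Acta2 value was -4.28 and -5.37 in these fits. Of all genes, 1 was called without the P21 female and none without the P21 male, and between 6 and 18 without 1 of the other mice. Earlier steps had no called member either: 0.042% of genes were called for P1 against E18.5 and 0% for P7 against P1. No member had an unadjusted p under 0.05 in them, against 5.398% and 3.994% of all genes. Ppp1r12b in pericytes was at 32.3 and 66.1 CPM at E18.5, 1.53 and 5.66 CPM at P1 and 29.1 and 16.3 CPM at P7, with the P1 mice below all the others. With every cell weighted equally, the means on plain CPM were 55.5, 17.1 and 53.3 CPM. Its fold changes were -3.81 (SE 2.02; edgeR adjusted p = 0.845) and then 2.81 (SE 2.00; edgeR adjusted p = 1). Myocd in pericytes gave -3.30 (SE 3.13) for P1 against E18.5, -5.10 (SE 3.54) for P7 against P1 and 1.55 (SE 3.14) for P21 against P7, on 0 to 227 reads a library. Srf gave -2.06 (SE 1.89), 1.50 (SE 2.24) and -1.18 (SE 1.88) for the same steps. The edgeR adjusted p of these 6 values lay between 0.888 and 1. Srf in pericytes differed widely between mice of 1 group, with 14.7 and 114 CPM at E18.5 and 42.4 and 7.92 CPM at P7.

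The pericyte difference was compared with the vascular one in the same mice. The fold change of P21 against P7 in pericytes minus that in vascular smooth muscle was -1.86 for Tpm2 (SE 0.87), -1.5 for Myl9 (SE 0.52) and -1.07 for Tpm1 (SE 0.55), each with an edgeR adjusted p of 1. Of 12991 genes, 0.0385% were called, none of them a member, and no gene was called without the P21 female or without the P21 male.

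In both kinds of fibroblast, the fitted values of Myl9 and Tpm2 for P21 against P7 were negative too. In adventitial fibroblasts Myl9 was at 876 and 1267 CPM at P7 and at 344 and 524 CPM at P21 (-1.31, SE 0.32; edgeR adjusted p = 0.195), and Tpm2 was at 203 and 215 CPM and then at 83.0 and 92.3 CPM (-1.26, SE 0.39; edgeR adjusted p = 0.35). There 7 members were lower and 1 higher without overlap, against 16.08% and 23.15% of all genes, and 0.124% of 15289 genes were called (0.0719% higher, 0.0523% lower). The members' median was -0.63, against 0.10 for all genes. Of the contractile targets Acta2 fell (-2.78, SE 0.40; edgeR adjusted p = 0.0462), a call lost in 5 of the 10 fits without 1 mouse (the P21 female, either P7 mouse or either hyperoxia mouse; highest edgeR adjusted p = 0.217) and without the CD31 and CD45 sorted cells (edgeR adjusted p = 0.054). In alveolar fibroblasts Myl9 was at 644 and 967 CPM and then at 112 and 232 CPM (-2.24, SE 0.44; edgeR adjusted p = 0.259), with 5 members lower and 1 higher, against 22.19% and 21.0% of all genes and 0.0702% of 15670 called (0.0638% higher, 0.00638% lower). Myl6 was at 492 and 573 CPM and then at 184 and 350 CPM (-1.02, SE 0.40; edgeR adjusted p = 0.673), and Tpm2 at 178 and 176 CPM and then at 30.3 and 155 CPM (-1.06, SE 0.70; edgeR adjusted p = 0.812). Myocd, at 5.43 CPM or less in each alveolar library, gave -1.95 (SE 1.85; edgeR adjusted p = 0.89), and in adventitial fibroblasts it gave -3.25 (SE 2.70; edgeR adjusted p = 0.708) with overlap. In alveolar fibroblasts Mylk was at 772 and 904 CPM and then at 949 and 1123 CPM, a difference absent on plain CPM (means of 869 and 866 CPM). At P21 the female alveolar and adventitial libraries held 2572 and 3233 genes per cell after thinning, and the male ones 1067 and 2107.

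**Figure D3:**
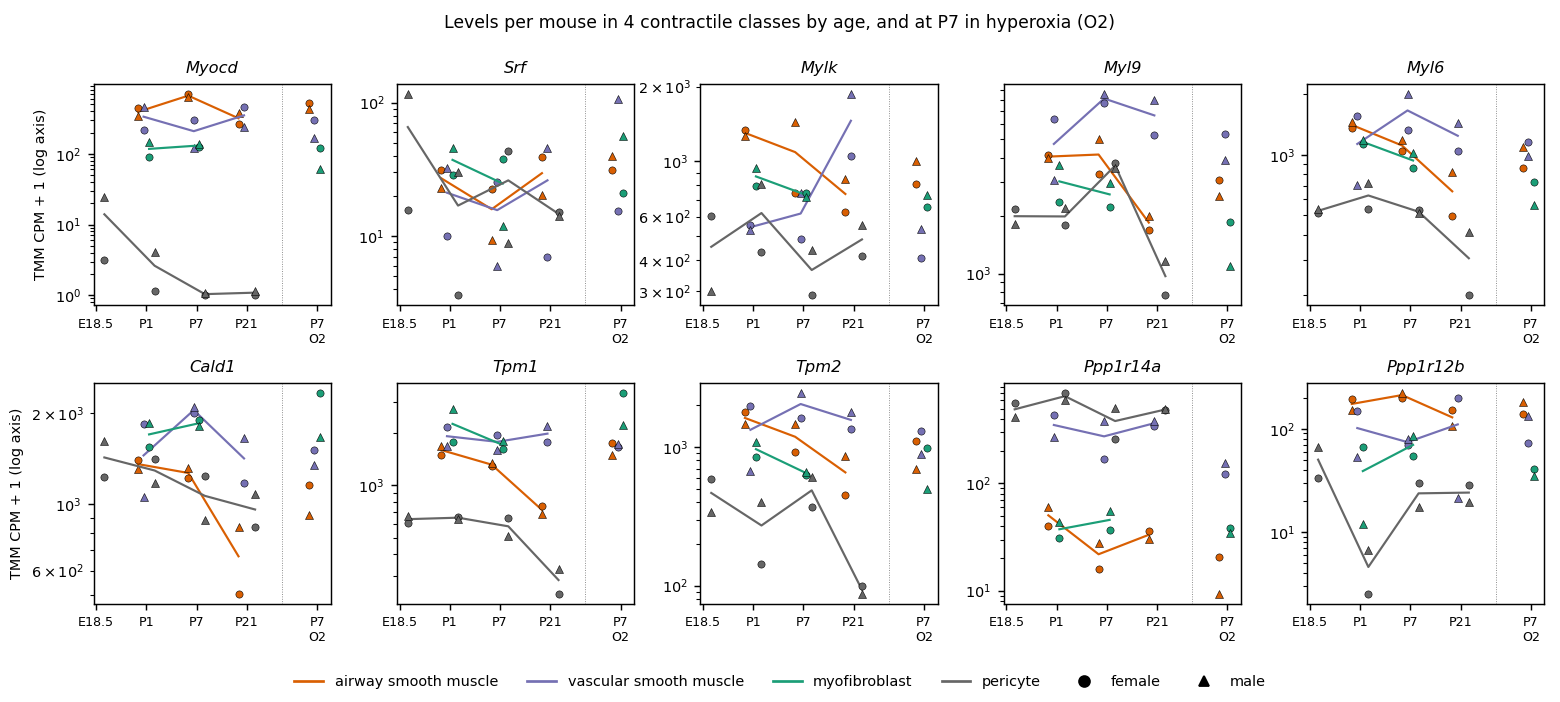
Level of each gene (CPM on the TMM scale plus 1, log axis) by age in airway smooth muscle, vascular smooth muscle, myofibroblasts and pericytes, 1 point per mouse, with P7 hyperoxia (P7 O2) as the last position. In the airway panels the P21 points of Myl9 (1685 and 1994 CPM) sit below those of P7 (3291 and 5017 CPM), and in the vascular panel the P21 points of Mylk sit above those of P7.

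Between P1 and P7 no member was called in airway smooth muscle, vascular smooth muscle or myofibroblasts, and neither was any other gene (0% in each), whereas DESeq2 called 396, 449 and 688 genes, none of them a member. No member had an unadjusted p under 0.05 in edgeR, against 5.253%, 3.729% and 8.012% of all genes in these classes. In airway smooth muscle 2 members were higher and 5 lower without overlap, against 21.78% and 15.89% of all genes. Myocd was at 442 and 341 CPM at P1 and at 693 and 632 CPM at P7, and Ppp1r14a was at 39.2 and 59.7 CPM and then at 14.8 and 26.9 CPM (-1.25, SE 0.90; edgeR adjusted p = 0.952). In myofibroblasts, Ppp1r12b ranged from 10.9 to 64.9 CPM between the P1 mice alone, and its fold change (1.19, SE 0.87; edgeR adjusted p = 0.736) was 2.74 without the P1 female and -0.00878 without the P1 male. The immediate-early list was lower at P7 than at P1. Its median was -0.57 in airway cells (all genes 0.13), -1.60 in vascular cells (0.13), -0.87 in myofibroblasts (0.18) and -1.11 in pericytes (0.03). Levels of this list at P7 thus lay below those of P1 as well as those of P21 in airway and vascular cells.

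Hyperoxia was compared with normal air at P7 in 5 classes. edgeR called no member in any of them and no other gene (0% in each), and DESeq2 called 122 to 386 genes a class, none of them a member. At an unadjusted p under 0.05 there were 2 members, both in adventitial fibroblasts, where 8.006% of all genes were under it. Each hyperoxia mouse was sequenced almost wholly on runs that held no normal-air P7 cells apart from 1 shared run with 14 and 9 cells of the males, too few for a within-run value, so run and oxygen cannot be told apart. Hyperoxia cells also held more genes per cell after thinning to 100000 reads: in myofibroblasts 4476 and 5317, against 2232 and 2125 in normal air, in airway cells 3667 and 4417 against 3175 and 2988, and in vascular cells 3325 and 3745 against 1836 and 1575. Their part in the values below was not tested.

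Myl9 had a lower fitted value in all 5 classes under hyperoxia, in 4 of them without overlap. In airway smooth muscle it was at 3063 and 2531 CPM, against 3291 and 5017 CPM in air (-0.55, SE 0.32). In vascular smooth muscle it was at 5330 and 3906 CPM, against 7700 and 8544 CPM (-0.83, SE 0.46). In myofibroblasts it was at 1844 and 1092 CPM, against 2210 and 2945 CPM (-0.79, SE 0.43). The adventitial value (-0.90, SE 0.32) was 1 of 2 members in that class with an unadjusted p under 0.05, together with Mylk (-0.81, SE 0.32), each with an edgeR adjusted p of 0.621. The 5 comparisons come from the same 4 mice and are not independent of each other.

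Tpm1 pointed the other way in myofibroblasts, at 3414 and 2230 CPM under hyperoxia against 1625 and 1788 CPM in air (0.73, SE 0.40; edgeR adjusted p = 0.828), and in adventitial fibroblasts at 643 and 605 CPM against 425 and 386 CPM (0.62, SE 0.33; edgeR adjusted p = 0.644). Myocd was at 524 and 430.1 CPM against 693 and 632 CPM in airway smooth muscle (-0.48, SE 0.35), and at 122 and 59.1 CPM against 125 and 135 CPM in myofibroblasts. Srf was at 30.2 and 38.9 CPM against 21.5 and 8.34 CPM in airway cells (1.39, SE 0.95; edgeR adjusted p = 1). After thinning, more cells of the male hyperoxia mouse held a Srf read than of the female one: 60.1% against 25.1% of vascular cells and 60% against 37.7% of myofibroblasts. Ppp1r12b in myofibroblasts was at 40.0 and 33.5 CPM, against 53.1 and 84.5 CPM (-1.01, SE 0.80; edgeR adjusted p = 0.908), a value of 0.27 without the P7 male.

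The members' medians under hyperoxia were -0.32 in airway cells (all genes -0.06), -0.45 in vascular cells (-0.01) and -0.19 in myofibroblasts (-0.01). Without overlap, 4 members were lower and 2 higher in airway cells (19.87% and 16.65% of all genes), 5 lower in vascular cells (17.86%) and 4 lower and 1 higher in myofibroblasts (23.88% and 23.09%). In alveolar fibroblasts the median was -0.0014 (all genes 0.06), with 3 members lower and 1 higher (20.18% and 22.85%). The 1 higher member was Myocd, at 1.76 and 1.25 CPM against 1.04 and 0.178 CPM (1.57, SE 1.81; edgeR adjusted p = 1). In adventitial fibroblasts the members' median was -0.15 (all genes 0.12), with 2 lower and 3 higher (18.73% and 26.45%). In adventitial fibroblasts the 13 contractile targets had a median of 1.22, against 0.12 for all genes, with 9 higher without overlap (26.45% of all genes) and none called. Acta2, Actg2, Des and Tagln had an unadjusted p under 0.05, against 8.006% of all genes. The adventitial hyperoxia cells held 4007 and 4810 genes per cell after thinning, against 2481 and 2550 in air, and 22.2 and 57.7 CPM of the endothelial markers, against 0.148 and 0.21 CPM. The part of either in these values was not tested. The difference of the hyperoxia value between vascular smooth muscle and myofibroblasts was 1.34 for Ppp1r12b and 1.13 for Srf, each with an edgeR adjusted p of 1, and between airway smooth muscle and myofibroblasts no member reached 1 on the log2 scale. In both of these tests 0% of genes were called.

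**Figure D4:**
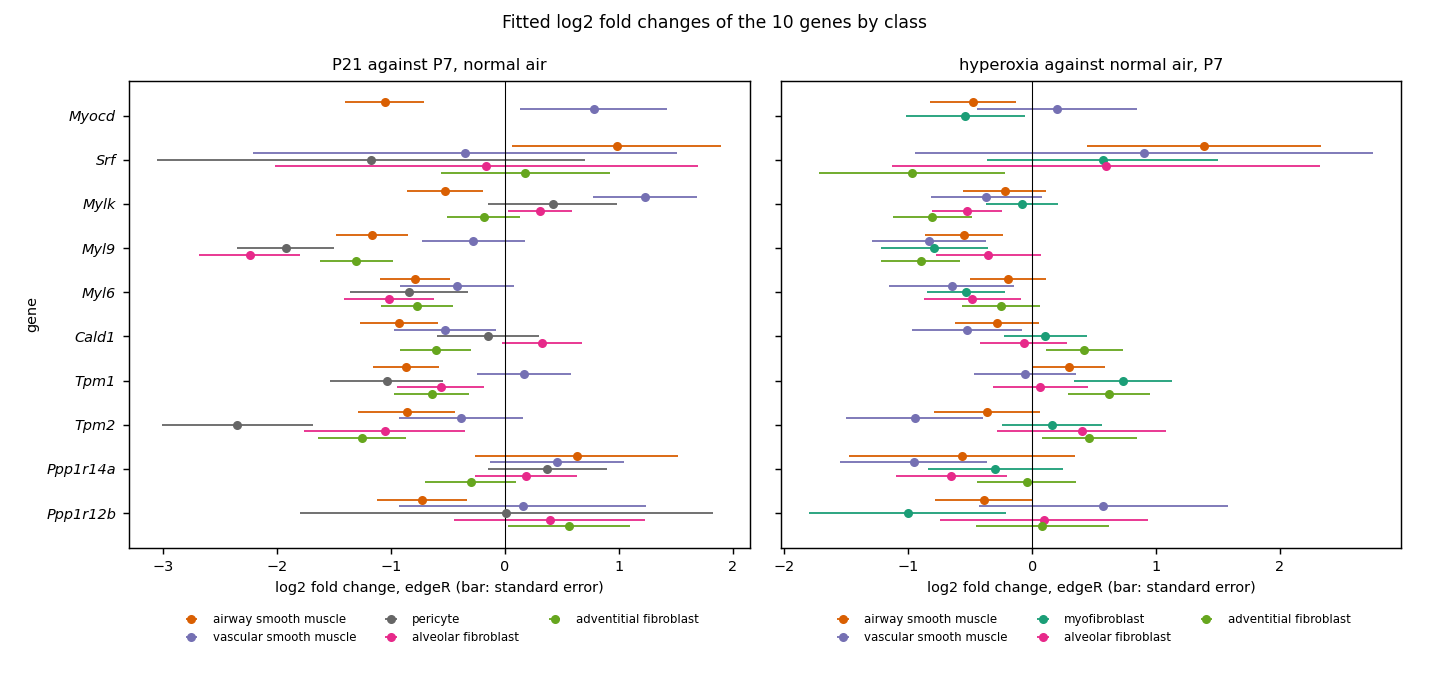
Fitted log2 fold changes of the members (edgeR; bars are standard errors) for P21 against P7 in normal air (left) and hyperoxia against normal air at P7 (right), by class, with 0 marked. Myl9 lies left of 0 in every class on both sides, though none of its values passed the threshold, and Mylk lies right of 0 in vascular smooth muscle on the left. Myocd is not drawn in pericytes and fibroblasts, where its level is low.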

How the data were processed

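The deposited table held raw read counts per gene and cell for 5480 cells and 18072 genes. Per the submitters' processing notes, STAR 2.5.2b and HTSeq 0.10 were used, and the build named is GRCh38, a human assembly although the samples are mouse. The annotation, cell filters and strand setting are not given in the sources used here, and no molecular identifiers are named. Groups, mice and subtypes came from the labels. The members and lists were chosen with earlier results of these data known, and 1 list is not reported here. Members past the threshold or with a fitted edgeR log2 fold change of at least 1 in size are named with their fit.

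Reads were summed per mouse and class (at least 10 cells). The test was the two-sided quasi-likelihood test of edgeR 4.0.16 (R 4.3.3) after filterByExpr and TMM scaling, with terms for group and sex. All groups of a class entered its fit. Differences between classes were interactions with the mouse as a block. Within a class, with 2 mice a group, the p-values measure the spread left after the group and sex terms over all its groups. For differences between classes, they measure the spread left after the mouse, class and interaction terms. DESeq2 1.42.0 and limma 3.58.1 (pseudocount 1) were alternatives. Fits were tested on simulated data. Merged exon lengths, which join all exons of a gene and need not equal a transcript's length, came from GENCODE M21 and promoters from RefSeq. Thinning to 100000 reads left out 168 cells. No doublet caller was run. Genes of like pattern were ranked on log2(CPM + 1) among genes reaching 10 CPM in a library.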

Additional observations from a re-analysis of the deposited data

Results flagged for a closer look

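In pericytes, the contractile targets Acta2 and Actg2 changed from P7 to P21 differently than in vascular smooth muscle, by the interaction test in edgeR with the mouse as a block. The difference of the log2 fold changes, pericyte minus vascular, was -4.61 for Acta2 (SE 0.54; edgeR adjusted p = 0.0156) and -13.21 for Actg2 (SE 1.31; edgeR adjusted p = 0.00866), beside a median of 0.65 over all genes of that test. Vascular Acta2 was at 20320 and 18060 CPM at P7 and at 15400 and 22690 CPM at P21. Vascular Actg2 was at 2472 and 2133 CPM and then at 1541 and 2649 CPM. The fitted Actg2 value depends on the prior count, because the pericytes held 0 and 2 reads at P21, and it is not a bound. Neither call held when 1 of the P21 mice was left out: without the female the values were -4.78 (edgeR adjusted p = 0.125) for Acta2 and -12.72 (edgeR adjusted p = 0.0972) for Actg2, and without the male -4.72 (edgeR adjusted p = 0.18) and -14.83 (edgeR adjusted p = 0.0838). No member of the 10 was past this threshold.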

How the results depend on the processing

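Of 302 recounts of the members called, 292 gave the main number, which was 0 in every comparison. DESeq2 called 1 member for P21 against P7 in airway cells (Myl9), 2 in pericytes (Tpm2, Myl9), 1 each in alveolar and adventitial fibroblasts (Myl9), and 1 for vascular against airway cells (Mylk). Weighting every cell equally with limma called 3 in airway cells (Myocd, Tpm1, Myl9), and using the later label alone at P21, chosen after seeing the data, called 1 (Myocd). No filter on low counts called 1 in pericytes (Myl9), and a fit of only the 4 mice compared called 1 in alveolar fibroblasts (Myl9). With 1 mouse left out the number ranged from 0 to 1 for P7 against P1 in myofibroblasts (Ppp1r12b, without the P1 female) and stayed 0 elsewhere.

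Signs turned in 7 of 548 refits. With 1 mouse left out, Ppp1r12b in myofibroblasts ranged from -0.00878 to 2.74 for P7 against P1 (called without the P1 female) and from -1.87 to 0.27 for hyperoxia, and pericyte Srf from -1.35 to 3.31 for P7 against P1 (-0.15 without the P1 female) and from -2.56 to 2.31 for P21 against P7. Adventitial Myocd for P21 against P7 ranged from -4.94 to 6.19 and gave 0.14 with the 4 mice alone. The cause was not tested.

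DESeq2 called more genes than edgeR: 1167 against 152 in airway cells for P21 against P7, 835 against 11 in vascular cells, 436 against 6 in pericytes, 1059 against 11 in alveolar and 861 against 19 in adventitial fibroblasts, 655 against 5 in pericytes for P1 against E18.5, 619 against 9 for vascular against airway cells and 390 against 5 for pericytes against vascular cells. Where edgeR called 0 it called 57 to 688. Without 1 mouse, edgeR called 45 to 261 in airway and 0 to 163 in alveolar cells for P21 against P7, and 0 to 615 in myofibroblasts for P7 against P1. For P21 against P7 they called 4 to 20 in vascular cells, 0 to 18 in pericytes and 1 to 72 in adventitial fibroblasts, and for P1 against E18.5 1 to 15 in pericytes. For the differences between classes they called 0 to 42 (vascular against airway) and 0 to 10 (pericyte against vascular). The 11 calls of list genes, refitted after seeing the data, held in 141 of 179 refits and kept their sign in all.

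Weighting every cell equally, chosen after seeing the data, moved 17 of 70 levels at P7 by more than 1 SD. Over all ages, 8 of 285 levels of at least 10 CPM moved by over 1.5 times (ratios from 0.332 to 2.36), 5 of them in pericytes. Thinning moved 34 of 70 shares at P7. No mouse belongs to 2 groups and no replicate number is shared, so mice could not be paired across ages or oxygen; tests between classes had the mouse as a block.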
